A study of Homo sapiens with 6 samples.

Results

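The genes described here are 46 members of the cell cycle machinery: cyclins, cyclin-dependent kinases (CDKs), the kinase that activates CDKs, CDK inhibitors other than CDKN1A, the phosphatases and kinases that act on CDKs, the CKS subunits with SKP2, the RB family, the E2F family with its partners, and the proliferation markers PCNA and MKI67. They were chosen by symbol from a written list, not by their measured values, although earlier results of these data were known. All 46 were found among the 20422 genes of the count table. RNA-Seq was carried out on HepG2, an established human liver cancer cell line, in 3 libraries of control cells (NC) and 3 libraries of cells that overexpress the microprotein APPLE fused to a Flag tag (ORF-Flag). The labels describe vector plasmid in NC and ORF-Flag plasmid in the other group, both transfected, whereas the methods of the study describe HepG2 lines made with lentivirus and selected with puromycin, so the delivery cannot be stated with certainty. All 6 libraries come from 1 cell line, and it is not stated in the sources used here if separate cultures gave the 3 samples of each group, so p-values measure the spread between these samples, which may be technical.

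Progression through the cell cycle is driven by CDKs, which are active only when bound to a cyclin. D-type cyclins with CDK4 or CDK6, and E-type cyclins with CDK2, phosphorylate RB and its relatives, which releases E2F transcription factors to switch on genes of DNA replication, while A-type and B-type cyclins with CDK1 carry cells through mitosis. In liver, hepatocytes rarely divide, and cell lines of liver cancer cycle continuously in culture.

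Of the 46 members, 44 had enough counts to be tested. At an adjusted p below 0.05 (edgeR's quasi-likelihood test, Benjamini-Hochberg adjustment over 12386 genes), 1 member, CKS1B, was higher in ORF-Flag and 4 members, CCND1, E2F4, MKI67 and PKMYT1, were lower. These 5 calls are 11.4% of the tested members, beside 4.45% of all genes tested. In the higher direction the share was 2.27% of members beside 2.47% of all genes, and in the lower direction 9.09% beside 1.98%. The sizes were small, from a log2 fold change of -0.22 for PKMYT1 to 0.22 for CKS1B. Each of these calls was lost when certain single libraries were left out, as given beside each gene. At an unadjusted p below 0.05, 1 member was higher and 7 were lower, which adds CCNA2, CCNB1 and CDC25B to the lower ones. These 8 are 18.2% of the tested members, beside 18.5% of all genes tested, of which 9.29% were higher and 9.22% lower. In bulk RNA, fewer cells in a phase of the cycle and less RNA per cell cannot be told apart.

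The 3 ORF-Flag libraries lay above the 3 NC libraries for 3 members, CCND2, CDKN2D and CKS1B (6.82%, beside 11.5% of all genes tested), and below them for 8 members (18.2%, beside 10.9%). Of the 44 tested members, 30 had a log2 fold change below 0 and 14 above 0, beside 6253 below and 6133 above among all 12386 genes tested. The median log2 fold change of the members was -0.04, and that of all genes tested was -0.0012. Since the members share regulation and are not replicates of the condition, these counts and medians are descriptions of the list.

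**Figure D1:**
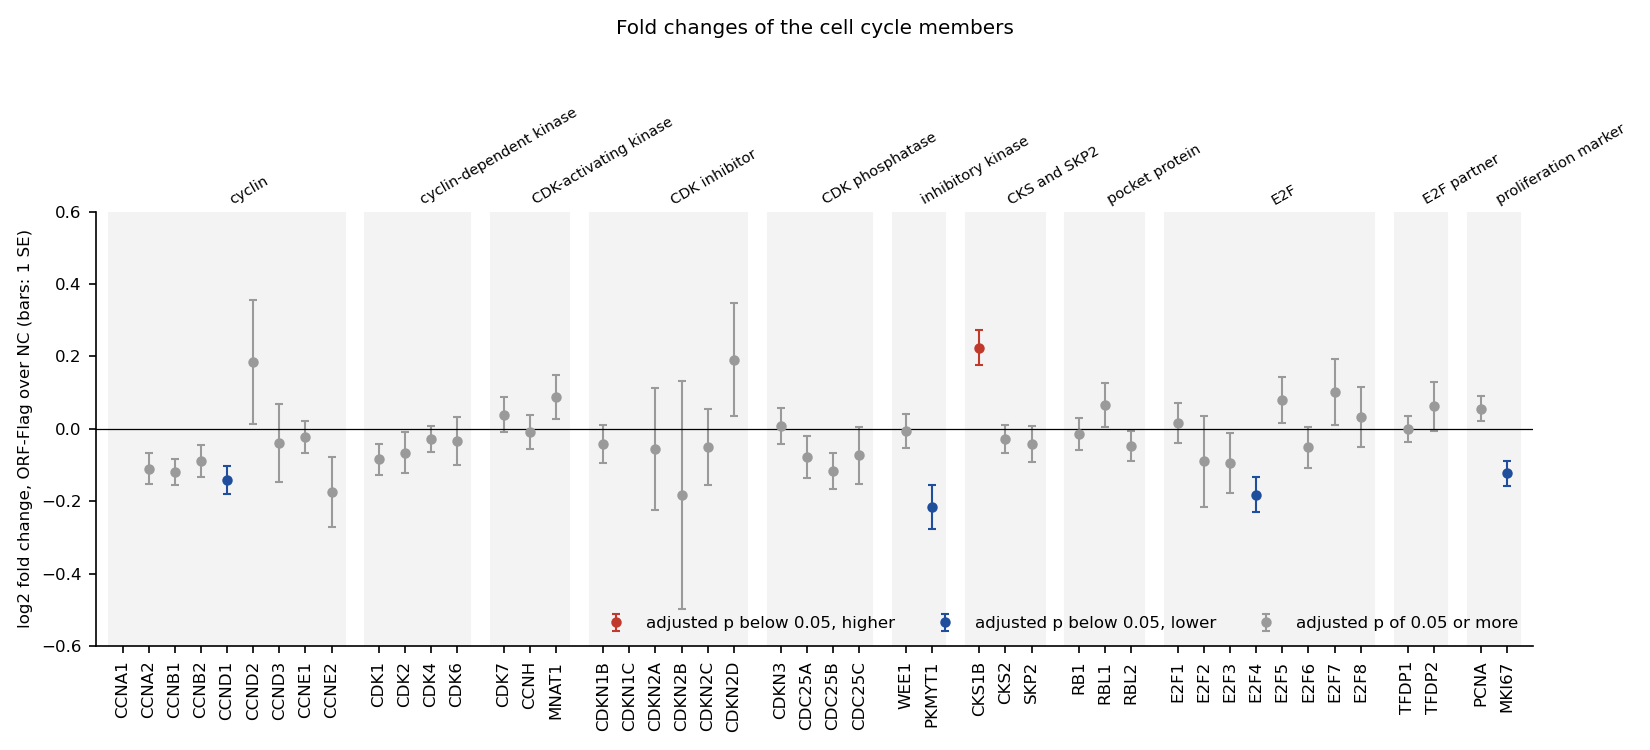
Log2 fold change (ORF-Flag over NC, edgeR) of the 44 tested members, grouped by role; bars are 1 standard error, and CCNA1 and CDKN1C, which were not tested, have no point. CKS1B lies highest at 0.22 and PKMYT1 lowest at -0.22, and the 5 coloured points have an adjusted p below 0.05.

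The libraries held 20081203, 24907524 and 30088457 counts in NC replicates 1, 2 and 3, and 26866148, 17494668 and 27015836 counts in ORF-Flag replicates 1, 2 and 3. At these depths 3 counts correspond to between 0.0997 and 0.171 CPM, the count of a gene for every 1000000 counts of its library, a floor that covers counting error only. The members together took between 0.306% and 0.324% of the counts of a library. Their summed level was 3209, 3118 and 3260.3 CPM in NC and 3091, 3075 and 3146 CPM in ORF-Flag. The highest ORF-Flag library lay between NC replicates 2 and 1 in this sum, so the groups overlapped.

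Most hepatocyte markers were high in every library. ALB, which encodes serum albumin, was between 6714 and 7586 CPM, APOB between 7312 and 8152 CPM and AFP between 713 and 755 CPM, while TTR had a count of only 5.63 to 6.66 CPM, and whether this reflects the cells or the counting is open. Of the 9 hepatocyte markers, 1 was higher in ORF-Flag at an adjusted p below 0.05 and 0 were lower (11.1% called, beside 4.45% of all genes), with 3 higher (FGB, ALB and SERPINA1) and 1 lower (APOB) at an unadjusted p below 0.05 (44.4%, beside 18.5%). The called gene was FGB, the beta chain of fibrinogen, at 344, 361 and 381 CPM in NC and 407, 399.7 and 392.1 CPM in ORF-Flag, with no overlap (log2 fold change 0.14, SE 0.04, edgeR adjusted p = 0.023). Its call held only without NC replicate 3, and leaving out any other library gave adjusted p values between 0.062 and 0.117.

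Markers of other cell types were mostly absent. PTPRC and CD3E, which define blood cells and T cells, were at 0 in all 6 libraries, and COL1A1, COL1A2 and CDH5 were at or below 0.0801 CPM. Only CD68 and PECAM1 of the 7 markers could be tested, and 0 were called by edgeR, DESeq2 or limma, with 1 at an unadjusted p below 0.05 (beside 4.45% and 18.5% of all genes). That gene was PECAM1, at between 3.84 and 4.78 CPM in NC and between 5.29 and 6.03 CPM in ORF-Flag. The 7 markers summed to 47.1, 41.3 and 42.9 CPM in NC and 44.0, 42.6 and 45.9 CPM in ORF-Flag, nearly all of it CD68, and the groups overlapped. Of the 31-base stretches of CD68, 93.7% are also annotated in the readthrough AC016876.2, so its level is uncertain.

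Levels between genes were compared as CPM per kilobase of the longest coding transcript. On this scale PCNA was the most abundant member, at 317 in NC and 329 in ORF-Flag, followed by CKS2 at 236 and 232 and CCNB1 at 107 and 98.8. CDK4 stood at 78.2 and 76.6, CKS1B at 77.1 and 89.9, and CDK1 at 68.6 and 64.7, so CKS1B and CDK4 exchanged places in the order. At the low end, CCND2 was at 0.365 and 0.415 and CDKN2B at 0.222 and 0.195. CCNA1, the A-type cyclin of the germ line, and CDKN1C, which encodes the inhibitor p57, had no more than 1 count in any library and were not tested.

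**Figure D2:**
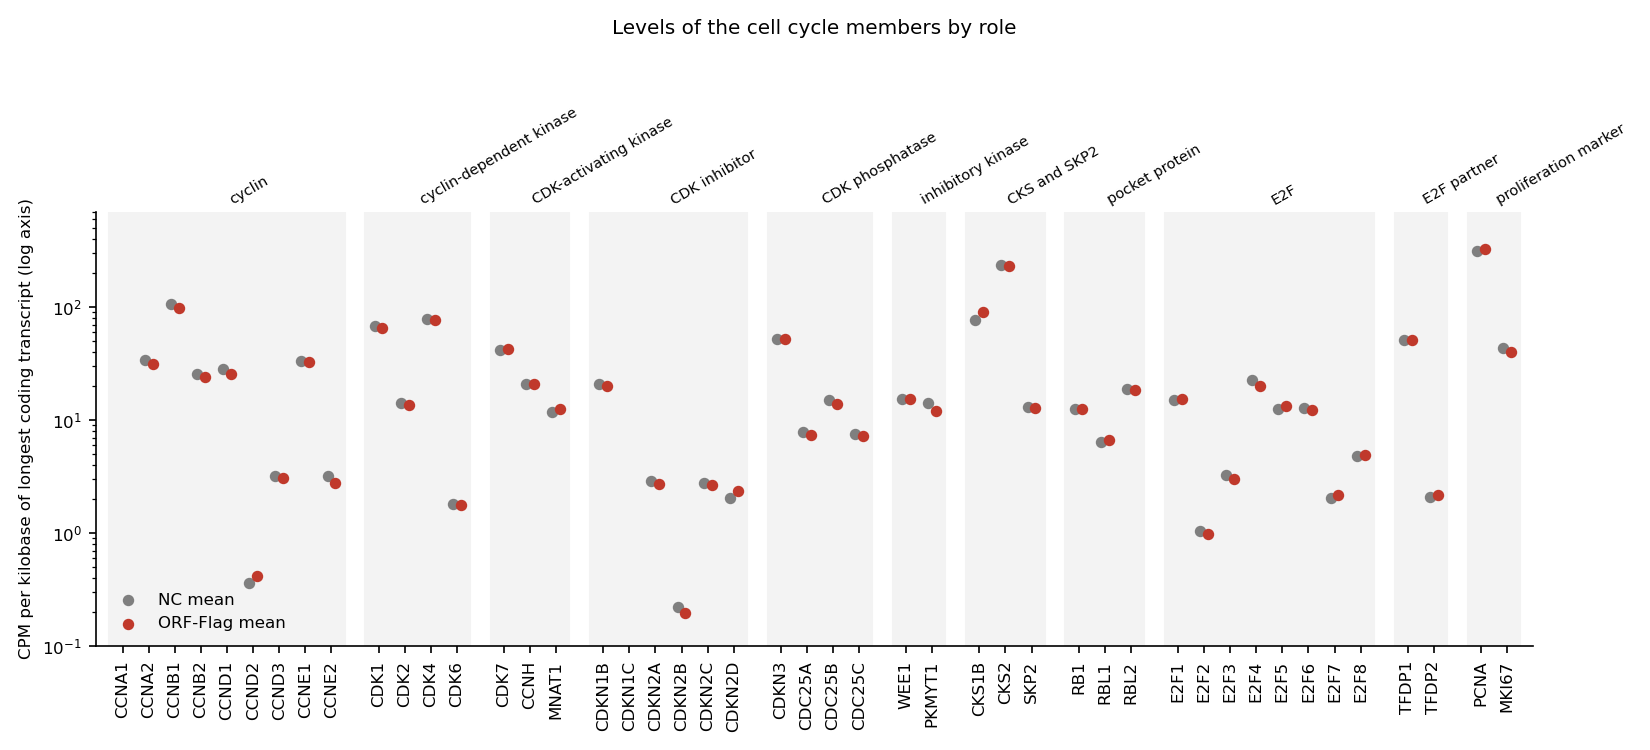
Mean level of each member in NC (grey) and ORF-Flag (red), as CPM per kilobase of the longest coding transcript on a log axis, grouped by role, with 3 libraries a group. PCNA (317 in NC) and CKS2 (236) are highest, and CCNA1 and CDKN1C lie below the axis.

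Among the 8 tested cyclins, CCND1 was the only one called by edgeR (12.5%, beside 4.45% of all genes), and DESeq2 called CCNB1 too. CCND1 encodes cyclin D1, which links growth factor signals to CDK4 and CDK6. CCND1 was at 126, 120.4 and 116 CPM in NC and at 109, 112 and 109 CPM in ORF-Flag. All 3 ORF-Flag libraries were below the lowest NC library, by 4.76 CPM at the closest. The log2 fold change was -0.14 (SE 0.04), so that the level fell by 9.36% (edgeR adjusted p = 0.035). The call held without NC replicate 3 (adjusted p = 0.0047) and was lost without NC replicate 1 (0.088), NC replicate 2 (0.10), ORF-Flag replicate 1 (0.139), ORF-Flag replicate 2 (0.071) or ORF-Flag replicate 3 (0.16). Exons of LTO1 on the opposite strand overlap 11.3% of the exon bases of CCND1, and LTO1 had a log2 fold change of -0.09 (SE 0.04, edgeR adjusted p = 0.20). Among the D-type cyclins, CCND1 made up 89.6%, 88.4% and 88.3% of the level per kilobase in NC and 87.0%, 88.8% and 88.0% in ORF-Flag. The groups overlapped in this share.

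The other D-type cyclins were scarce. CCND2 was at 2.47, 2.32 and 2.31 CPM in NC and at 2.64, 2.76 and 2.67 CPM in ORF-Flag, between 48 and 72 counts a library. Every ORF-Flag library was above every NC library, but the difference did not pass the test (log2 fold change 0.19, SE 0.17, edgeR adjusted p = 0.63). Part of CCND2, 14.9% of its 31-base stretches, is also annotated in another transcript. CCND3 averaged 7.61 CPM in NC and 7.38 CPM in ORF-Flag.

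CCNB1, the mitotic B-type cyclin that activates CDK1, is given because it lay next to the threshold, a choice made after its values were seen. It was at 239, 223 and 237 CPM in NC and at 211, 214 and 218 CPM in ORF-Flag. The groups did not overlap, and the gap between them was 4.60 CPM. Its log2 fold change was -0.12 (SE 0.04, edgeR adjusted p = 0.052). The value passed the threshold with DESeq2 (0.0488), without TMM scaling (0.045), without a filter on low counts (0.023) and without NC replicate 2 (0.0405), and the adjusted p was as high as 0.202 without ORF-Flag replicate 1. CCNB2, the second B-type cyclin, averaged 64.2 CPM in NC and 60.4 CPM in ORF-Flag with no overlap between the groups (log2 fold change -0.09, SE 0.05, edgeR adjusted p = 0.30). CCNA2, which acts in S phase and at entry to mitosis, averaged 95.7 and 88.5 CPM with overlapping groups (log2 fold change -0.11, SE 0.04, edgeR adjusted p = 0.148).

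E-type cyclins start DNA replication with CDK2. CCNE1 averaged 68.1 CPM in NC and 67.1 CPM in ORF-Flag (log2 fold change -0.02, SE 0.04). CCNE2 averaged 10.6 and 9.31 CPM with a log2 fold change of -0.17 (SE 0.10), and neither was called. CCNE1 made up between 91.0% and 91.6% of the E-type level per kilobase in NC and between 91.3% and 93.2% in ORF-Flag. Exons of other genes on the opposite strand overlap 47.6% of the exon bases of CCNE2, so its level is uncertain. Of the 8 tested cyclins, 7 had a log2 fold change below 0 (beside 6253 of all 12386 genes tested), and the median was -0.10.

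The 4 CDKs that drive the cycle had log2 fold changes between -0.08 and -0.03. Of these, 0 were called by edgeR, DESeq2 or limma, beside 4.45% of all genes called by edgeR. At an unadjusted p below 0.05 there were 0, beside 18.5% of all genes. With 4 genes, little can be read from a count of 0. CDK1, the kinase of mitosis, had the smallest p. It was at 131, 128 and 143 CPM in NC and at 125, 121 and 132 CPM in ORF-Flag. NC replicate 3 was the highest library and ORF-Flag replicate 2 the lowest, and ORF-Flag replicate 3 was above NC replicates 1 and 2, so the groups overlapped (log2 fold change -0.08, SE 0.04, edgeR adjusted p = 0.30). CDK2 averaged 32.5 CPM in NC and 31.1 CPM in ORF-Flag, CDK4 162 and 159 CPM, and CDK6 21.0 and 20.5 CPM. Per kilobase, the level of CDK4 was 44.3, 41.4 and 44.0 times that of CDK6 in NC and 44.2, 43.5 and 42.7 times in ORF-Flag. CDK4 shares 51.9% of its exon bases with TSPAN31 on the opposite strand, so reads there may have been split or dropped in counting.

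CDK7, CCNH and MNAT1 form the kinase that phosphorylates the activating loop of CDKs and is also a part of the transcription factor TFIIH. MNAT1, which assembles the complex, had the smallest p of these. It was at 29.3, 30.4 and 33.3 CPM in NC and at 31.7, 34.0 and 33.8 CPM in ORF-Flag. ORF-Flag replicate 1 was below NC replicate 3, so the groups overlapped (log2 fold change 0.09, SE 0.06, edgeR adjusted p = 0.47). CDK7 averaged 60.3 CPM in NC and 62.2 CPM in ORF-Flag, and CCNH 50.3 and 50.04 CPM. Of the stretches of 31 bases in CDK7, 13.3% also occur in its pseudogene CDK7P1.

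CDK inhibitors bind CDKs or their complexes with cyclins and hold them inactive. Of the 5 tested, 0 were called by edgeR, DESeq2 or limma, beside 4.45% of all genes called by edgeR. At an unadjusted p below 0.05 there were 0, beside 18.5% of all genes. Little can be read from a count of 0 among 5 genes. CDKN2D, which encodes the INK4 inhibitor p19, had the smallest p. It was at 2.82, 2.96 and 2.94 CPM in NC and at 3.17, 3.33 and 3.48 CPM in ORF-Flag. Every ORF-Flag library was above the NC libraries, yet the gene had only between 57 and 94 counts a library, and the difference did not pass the test (log2 fold change 0.19, SE 0.16, edgeR adjusted p = 0.57). CDKN1B, which encodes p27, had the highest CPM of the 5 inhibitors tested here, at 55.4 ± 3.92 CPM in NC and 53.6 ± 1.71 CPM in ORF-Flag (SD, n = 3). The INK4 genes CDKN2A, CDKN2B and CDKN2C averaged 3.67, 0.869 and 7.99 CPM in NC and 3.49, 0.761 and 7.70 CPM in ORF-Flag. CDKN2B had between 10 and 29 counts a library, which leaves an SE of 0.32 on its log2 fold change of -0.18.

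The CDC25 phosphatases remove the inhibitory phosphates of CDKs. CDC25B, which acts at entry to mitosis, was at 57.5, 52.7 and 51.7 CPM in NC and at 50.4, 49.9 and 48.8 CPM in ORF-Flag. The groups did not overlap, with a gap of 1.30 CPM, but the test was not passed (log2 fold change -0.12, SE 0.05, edgeR adjusted p = 0.21). CDC25A averaged 29.5 CPM in NC and 27.9 CPM in ORF-Flag, also with no overlap (log2 fold change -0.08, SE 0.06, edgeR adjusted p = 0.52). CDC25C averaged 16.2 and 15.4 CPM, and CDKN3, a phosphatase of the activating loop, 55.5 and 56.0 CPM. Both had overlapping groups.

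WEE1 and PKMYT1 are the kinases that add the inhibitory phosphates. PKMYT1, the membrane-bound enzyme that acts on CDK1, was at 34.6, 31.9 and 31.5 CPM in NC and at 29.6, 28.0 and 26.5 CPM in ORF-Flag. All ORF-Flag libraries were below all NC libraries, with a gap of 1.86 CPM. Its log2 fold change of -0.22 (SE 0.06) was the lowest of the tested members, and the level fell by 13.9% (edgeR adjusted p = 0.044). The call held when either NC replicate 3 (adjusted p = 0.0187) was left out or ORF-Flag replicate 1 (0.0437), and was lost with DESeq2 (0.0731) and without NC replicate 1 (0.122), NC replicate 2 (0.10), ORF-Flag replicate 2 (0.115) or ORF-Flag replicate 3 (0.25). Exons of KREMEN2 and PAQR4 on the opposite strand overlap 28.6% of the exon bases of PKMYT1, and these neighbours had log2 fold changes of -0.36 (SE 0.19) and -0.25 (SE 0.13), neither called. Whether reads from the neighbours enter the PKMYT1 count was not tested. WEE1, the nuclear kinase, averaged 53.2 CPM in NC and 53.0 CPM in ORF-Flag (log2 fold change -0.0046, SE 0.05).

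CKS1B was the only member called higher. It encodes a small subunit that binds CDKs and is needed by the ubiquitin ligase subunit SKP2 to recognise p27. CKS1B was at 72.9, 64.3 and 73.8 CPM in NC and at 82.0, 79.3 and 84.7 CPM in ORF-Flag. The lowest ORF-Flag library was 5.56 CPM above the highest NC library, and NC replicate 2 was the lowest of all 6. The log2 fold change was 0.22 (SE 0.05), or 16.8% higher (edgeR adjusted p = 0.0083). The call was lost without NC replicate 2 (log2 fold change 0.16, adjusted p = 0.085) and without ORF-Flag replicate 3 (0.20, adjusted p = 0.074), and held with each other library left out.

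The paralogue CKS2 did not follow. It averaged 145 ± 6.60 CPM in NC and 142 ± 3.29 CPM in ORF-Flag (SD, n = 3), with a log2 fold change of -0.03 (SE 0.04). Per kilobase, CKS1B stood at 0.356, 0.297 and 0.329 of CKS2 in NC and at 0.378, 0.38 and 0.407 in ORF-Flag, without overlap. SKP2 itself averaged 49.4 and 48.2 CPM with a log2 fold change of -0.04 (SE 0.05). Of the 31-base stretches of CKS1B, 20.5% also occur in transcripts of 7 other genes, most of them in the pseudogene CKS1BP2 (18.1%), so reads from these copies may have been dropped from, or added to, its count.

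RB1, RBL1 and RBL2 encode the pocket proteins that hold E2Fs in check. None of the 3 was called by edgeR, DESeq2 or limma, beside 4.45% of all genes called by edgeR. At an unadjusted p below 0.05 there were 0, beside 18.5% of all genes, and 3 genes are too few to read much from this. RBL2, which encodes p130, had the smallest p and was at 89.5, 97.3 and 92.9 CPM in NC and at 86.9, 91.5 and 92.5 CPM in ORF-Flag. The groups overlapped (log2 fold change -0.05, SE 0.04, edgeR adjusted p = 0.60). RB1 averaged 60.1 CPM in NC and 59.6 CPM in ORF-Flag, and RBL1, which encodes p107, 36.4 and 38.04 CPM.

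Of the 8 E2F genes, E2F4 was called lower and the other 7 were not called. This is 12.5% called, beside 4.45% of all genes called in either direction and 1.98% called lower. With 8 genes, little can be read from 1 call. E2F4 binds p130 and p107 and is best known as a repressor in resting cells. E2F4 was at 47.9, 47.9 and 46.8 CPM in NC and at 41.6, 42.6 and 41.6 CPM in ORF-Flag. The libraries of each group lay close together and 4.24 CPM separated the groups, the widest gap of any member relative to its NC mean (8.92%). The log2 fold change was -0.18 (SE 0.05), so that the level fell by 11.8% (edgeR adjusted p = 0.031). The call held without NC replicate 3 (adjusted p = 0.025) and was lost with DESeq2 (0.0521) and without NC replicate 1 (0.058), NC replicate 2 (0.126), ORF-Flag replicate 1 (0.107), ORF-Flag replicate 2 (0.079) or ORF-Flag replicate 3 (0.136). In these fits the log2 fold change stayed between -0.19 and -0.18. E2F4 made up 30.5%, 30.9% and 30.2% of the summed E2F level per kilobase in NC and 27.5%, 28.9% and 27.1% in ORF-Flag, without overlap.

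E2F1, the activator released by RB, was at 39.9, 37.2 and 36.4 CPM in NC and at 39.6, 38.0 and 36.8 CPM in ORF-Flag. The libraries of the groups were interleaved (log2 fold change 0.02, SE 0.06, edgeR adjusted p = 0.92). The activators E2F2 and E2F3 averaged 5.42 and 15.4 CPM in NC and 5.12 and 14.4 CPM in ORF-Flag, with log2 fold changes of -0.09 (SE 0.13) and -0.09 (SE 0.08). The repressors E2F5, E2F6, E2F7 and E2F8 averaged between 11.7 CPM (E2F7) and 44.3 CPM (E2F6) in NC and between 12.5 and 42.7 CPM in ORF-Flag, with log2 fold changes between -0.05 and 0.10. E2F6 shares 14.7% of its 31-base stretches with the pseudogene E2F6P1.

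TFDP1 and TFDP2 encode the DP proteins that pair with E2Fs on DNA. TFDP2 had the smaller p and was at 21.0, 19.3 and 21.8 CPM in NC and at 22.0, 20.6 and 22.0 CPM in ORF-Flag. The groups overlapped (log2 fold change 0.06, SE 0.07, edgeR adjusted p = 0.70). TFDP1 averaged 134 CPM in NC and 134 CPM in ORF-Flag, and made up between 95.7% and 96.4% of the DP level per kilobase in the 6 libraries. Copies in other transcripts share 16.2% of the 31-base stretches of TFDP1.

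Of the proliferation markers, MKI67 was called and PCNA was not. MKI67, which encodes the Ki-67 antigen of cycling cells, was at 551, 523 and 569.6 CPM in NC and at 506, 495 and 508 CPM in ORF-Flag. NC replicate 2 lay 14.8 CPM above the highest ORF-Flag library, and the groups did not overlap. The log2 fold change was -0.12 (SE 0.03), so that the level fell by 8.18% (edgeR adjusted p = 0.037). The call held when NC replicate 1 (adjusted p = 0.0449) or NC replicate 2 (0.0248) was left out, and was lost without NC replicate 3 (0.0726), ORF-Flag replicate 1 (0.103), ORF-Flag replicate 2 (0.167) or ORF-Flag replicate 3 (0.12). PCNA, the sliding clamp of DNA polymerases, was at 436, 410.3 and 445 CPM in NC and at 442, 445 and 456 CPM in ORF-Flag. Only ORF-Flag replicate 3 was above every NC library (log2 fold change 0.06, SE 0.03, edgeR adjusted p = 0.41). Per kilobase, MKI67 stood at between 0.135 and 0.137 of PCNA in NC and between 0.119 and 0.123 in ORF-Flag, without overlap.

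**Figure D3:**
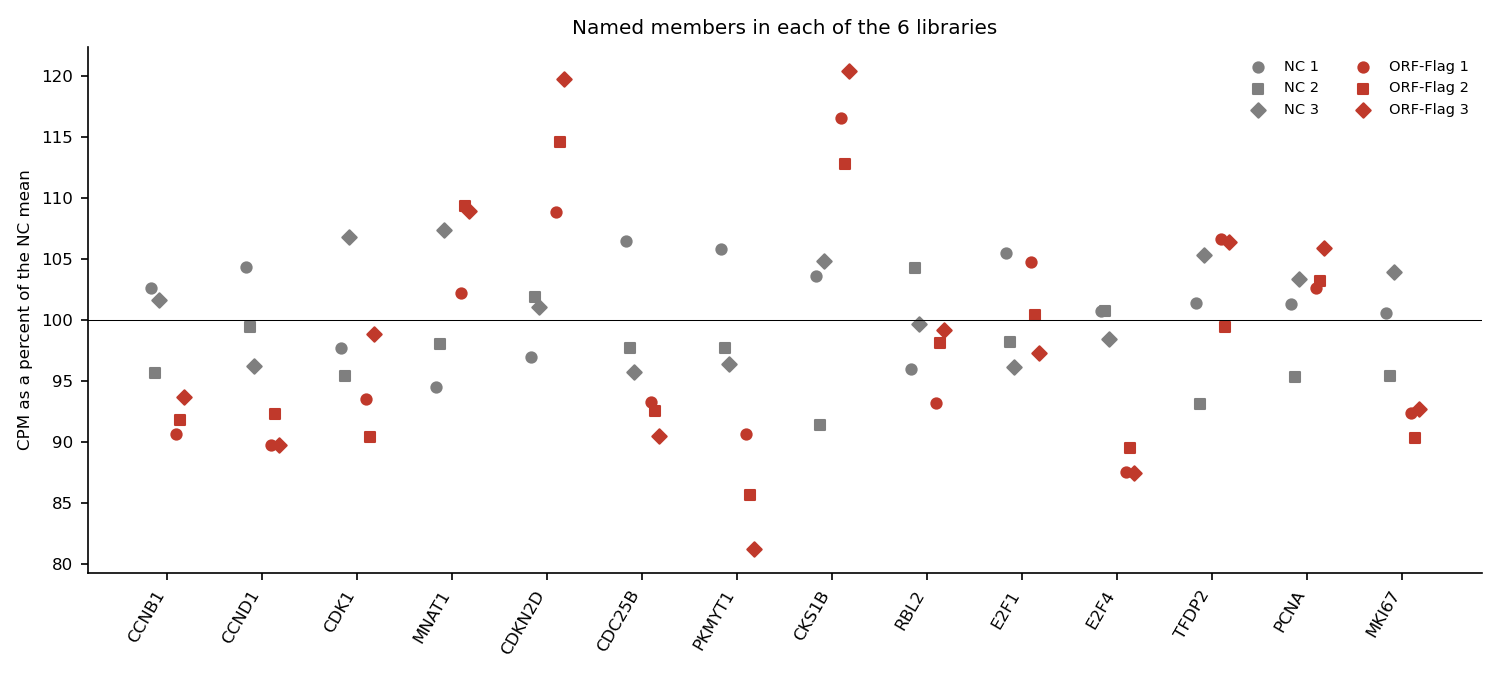
Level of 14 members in each of the 6 libraries, as a percent of the mean CPM of the 3 NC libraries (grey, NC; red, ORF-Flag; marker shape, replicate number). The red points of CKS1B and CDKN2D lie above the grey ones, those of CCND1, PKMYT1, E2F4, MKI67, CCNB1 and CDC25B lie below them, and those of E2F1 are interleaved.

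**Figure D4:**
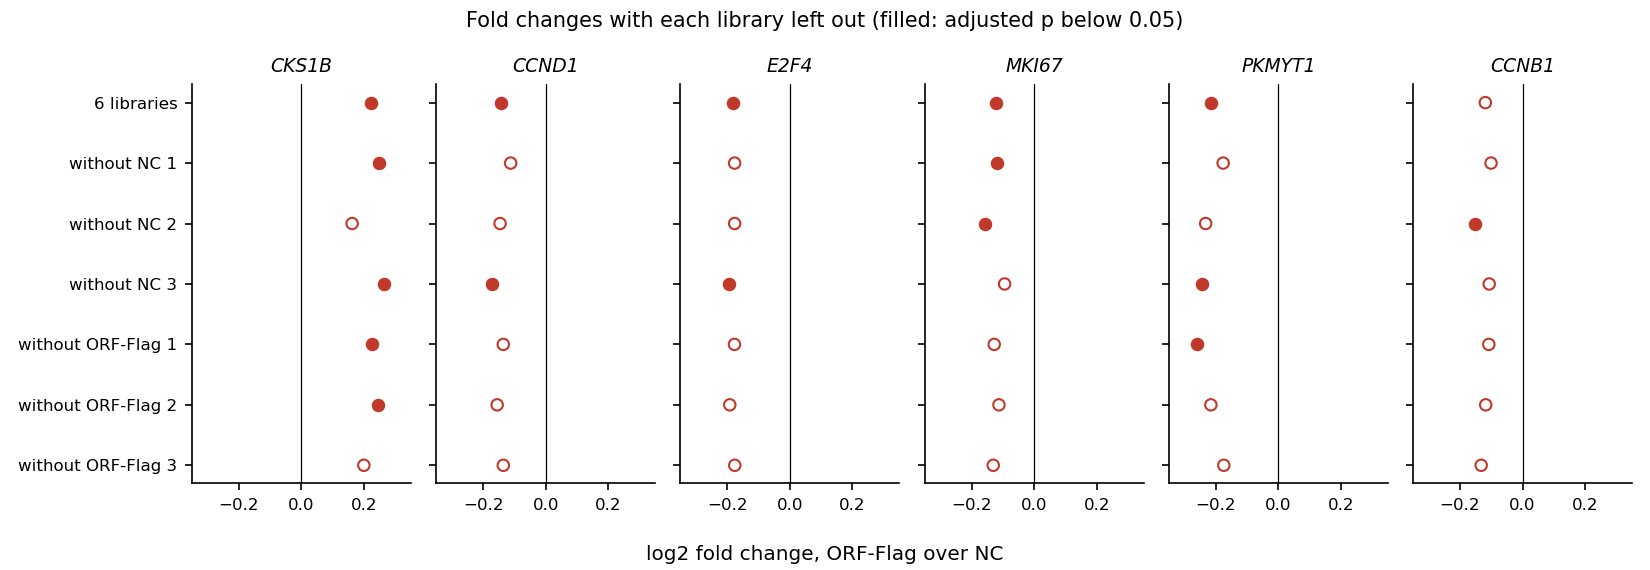
Log2 fold change (ORF-Flag over NC, edgeR) of the 5 called members and CCNB1 with all 6 libraries and with each library left out; filled points have an adjusted p below 0.05. The direction is the same in every fit, while the calls are lost in between 2 and 5 of the 6 reduced fits of a called member.

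The bases before the start sites were searched for letters known from cell cycle promoters, because members of the same pathway were called in both directions. RefSeq (GRCh38.p14) gave 56 start sites for 37 of the 46 members. The 250 bases before each were searched on both strands for 4 forms of the E2F motif (TTTCCCGC, TTTCGCGC, TTTGCCGC and TTTGGCGC), for the CHR element (TTTGAA or TTCGAA), which is known from genes of mitosis, and for CCAAT. The letters TATAAA were searched for as well. An E2F form was in 8 of the 56 windows (14.3%), beside 2.79% of the 35116 windows of 27305 RefSeq genes. This background is broader than the genes tested for expression and was not matched for base content. Some members have more than 1 window, so the windows are not independent. The CHR letters were in 12 (21.4%, beside 14.3%) and CCAAT in 26 (46.4%, beside 32.0%). TATAAA was less frequent in members, in 1 window (1.79%, beside 10.7%).

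An E2F form stood before CDC25A, CDK1, E2F1, E2F2, E2F3, PCNA, RBL1 and TFDP1. None of these 8 was called by edgeR (4.45% of all genes were), and 2 of the 4 members called lower, CCND1 and PKMYT1, had no window to search. The 8 had a median log2 fold change of -0.04, beside -0.04 for the 28 tested members with a promoter and no such form. RB1 is counted among those without a motif, but its only window (chr13:48476200-48476449) lies inside the gene, which starts at 48303726. The bases before that start were not searched. The 10 members with CHR letters had a median of -0.08, and the 26 tested members without had -0.04. A match describes these letters only and is no sign that a factor binds there.

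Promoters of CKS1B, called higher, and MKI67, called lower, are printed because both hold CHR and CCAAT letters, in capitals (CCAAT reads ATTGG on the opposite strand). The sequence of CKS1B is chr1:154974431-154974656 on the plus strand, which ends 24 bases before the RefSeq start site with the last 4 bases in a first exon annotated by GENCODE. That of MKI67 is chr10:128126424-128126673 on the minus strand, up to the start site. It has the CHR letters 2 times, 47 and 29 bases before the start site, and the later copy overlaps a CCAAT on the other strand. In CKS1B they begin 30 bases before the start site, with 5 copies of CCAAT upstream. E2F4 held none of these motifs in its window.
CKS1B: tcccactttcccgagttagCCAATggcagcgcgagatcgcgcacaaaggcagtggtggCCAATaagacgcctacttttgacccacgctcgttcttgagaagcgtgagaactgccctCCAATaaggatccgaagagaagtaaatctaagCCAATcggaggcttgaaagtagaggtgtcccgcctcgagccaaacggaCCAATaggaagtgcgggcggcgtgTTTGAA
MKI67: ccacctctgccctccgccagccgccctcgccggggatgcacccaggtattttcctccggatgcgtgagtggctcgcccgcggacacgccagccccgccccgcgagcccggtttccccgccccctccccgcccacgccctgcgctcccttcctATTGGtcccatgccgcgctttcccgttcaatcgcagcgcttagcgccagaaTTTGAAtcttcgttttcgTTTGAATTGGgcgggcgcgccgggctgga

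Genes that work with the members were read from further lists. Replication licensing and initiation, the loading and firing of the MCM helicase, had 20 tested genes, of which 0 were called by edgeR, DESeq2 or limma, with 1 higher (MCM10) and 1 lower (GINS4) at an unadjusted p below 0.05 in edgeR, names taken after the values were seen. These are 0% called and 10% at the unadjusted threshold, beside 4.45% and 18.5% of all genes tested. Among its most abundant genes, MCM3 averaged 340.0 CPM in NC and 329 CPM in ORF-Flag, MCM7 269 and 254 CPM, MCM4 196 and 188 CPM, and CDC6 146 and 153 CPM. The median log2 fold change of this list was -0.03. A list of 8 S phase genes known as E2F targets, most of them in nucleotide synthesis, with SLBP for histone RNA and POLA1 for DNA polymerase alpha, also had 0 calls by edgeR, DESeq2 or limma and 0 at an unadjusted p below 0.05 (beside 4.45% and 18.5% of all genes), with a median of -0.02, and 8 genes are too few to read much from a count of 0. RRM2, a subunit of ribonucleotide reductase, averaged 188 CPM in NC and 185 CPM in ORF-Flag, and TYMS, thymidylate synthase, 174 and 177 CPM. Exons of other genes on the opposite strand overlap 64.6% of the exon bases of TYMS, and 33.1% of the stretches of RRM2 are shared.

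The MuvB complex joins MYBL2 and FOXM1 to switch on genes of mitosis through CHR elements. Of its 7 tested genes, 1 was called lower and 0 higher by each of edgeR, DESeq2 and limma, with a median log2 fold change of -0.07 (14.3% called, beside 4.45% of all genes). At an unadjusted p below 0.05, 1 was higher (LIN52) and 2 lower (FOXM1 and RBBP4), together 42.9% of the list beside 18.5% of all genes. The called gene was FOXM1, at 93.3, 95.2 and 96.2 CPM in NC and at 84.1, 82.5 and 86.6 CPM in ORF-Flag. The groups did not overlap (log2 fold change -0.17, SE 0.04, edgeR adjusted p = 0.013). Its call was lost when NC replicate 2 (adjusted p = 0.059), ORF-Flag replicate 1 (0.068) or ORF-Flag replicate 2 (0.076) was left out. RBBP4 averaged 300.2 CPM in NC and 284 CPM in ORF-Flag, MYBL2 171 and 163 CPM, and LIN54 27.2 and 25.8 CPM, none of them called. LIN52, named after its values were seen, had the largest change of the list, upwards, from 4.87 to 6.56 CPM on average with no overlap, and was not called (log2 fold change 0.42, SE 0.13, edgeR adjusted p = 0.074). LIN37 and LIN9 had log2 fold changes of 0.15 (SE 0.11) and 0.02 (SE 0.09), and 64.5% of the 31-base stretches of LIN37 are also annotated elsewhere.

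Ubiquitin ligases that destroy cyclins, mainly subunits of the anaphase-promoting complex, had 25 tested genes of 26. UBE2C, the ubiquitin-conjugating enzyme of that complex, was the only call by edgeR, at 94.7, 86.7 and 89.7 CPM in NC and at 79.7, 77.5 and 85.6 CPM in ORF-Flag. The groups did not overlap, although ORF-Flag replicate 3 was close to NC replicate 2 (log2 fold change -0.15, SE 0.04, edgeR adjusted p = 0.049). The call was lost with DESeq2 (0.0696), limma-voom (0.0601) and unscaled libraries (0.0514), and without NC replicate 1 (0.123), NC replicate 2 (0.0573), ORF-Flag replicate 1 (0.183) or ORF-Flag replicate 2 (0.211). With limma-trend ANAPC2 was called lower too. At an unadjusted p below 0.05 the list had 1 gene higher (ANAPC1) and 7 lower (32% together, beside 18.5% of all genes tested), with 4% called beside 4.45%, and its median log2 fold change was -0.05. ANAPC5 averaged 197 CPM in NC and 193 CPM in ORF-Flag, ANAPC1 164 and 178 CPM, and CDC20, which activates the complex in mitosis, 142 and 132 CPM. Other transcripts share 56.1% of the 31-base stretches of ANAPC1 and 23.6% of those of CDC20, so both levels are uncertain. SKP1, listed there too, had at most 0.434 CPM in the table and was not tested, and whether so low a value comes from the counting is open.

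Cyclins and CDKs outside the core cycle, many of them in transcription, served for comparison within the families. Of 14 tested other cyclins 0 were called by edgeR, DESeq2 or limma, with 2 higher (CCNP and CCNYL1) at an unadjusted p below 0.05 (14.3%, beside 18.5% of all genes, of which 4.45% were called), and the median log2 fold change was 0.03. CCNL2 averaged 173 CPM in NC and 165 CPM in ORF-Flag. Of 13 tested other CDKs 0 were called by any of these, with 1 lower (CDK9) at an unadjusted p below 0.05 (7.69%, beside the same shares of all genes), and the median was 0.0044. CDK12, a kinase of RNA polymerase II, averaged 188 CPM in NC and 185 CPM in ORF-Flag, and CDK15 and CDK20 were at 0 in all libraries. No difference between lists was tested.

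**Figure D5:**
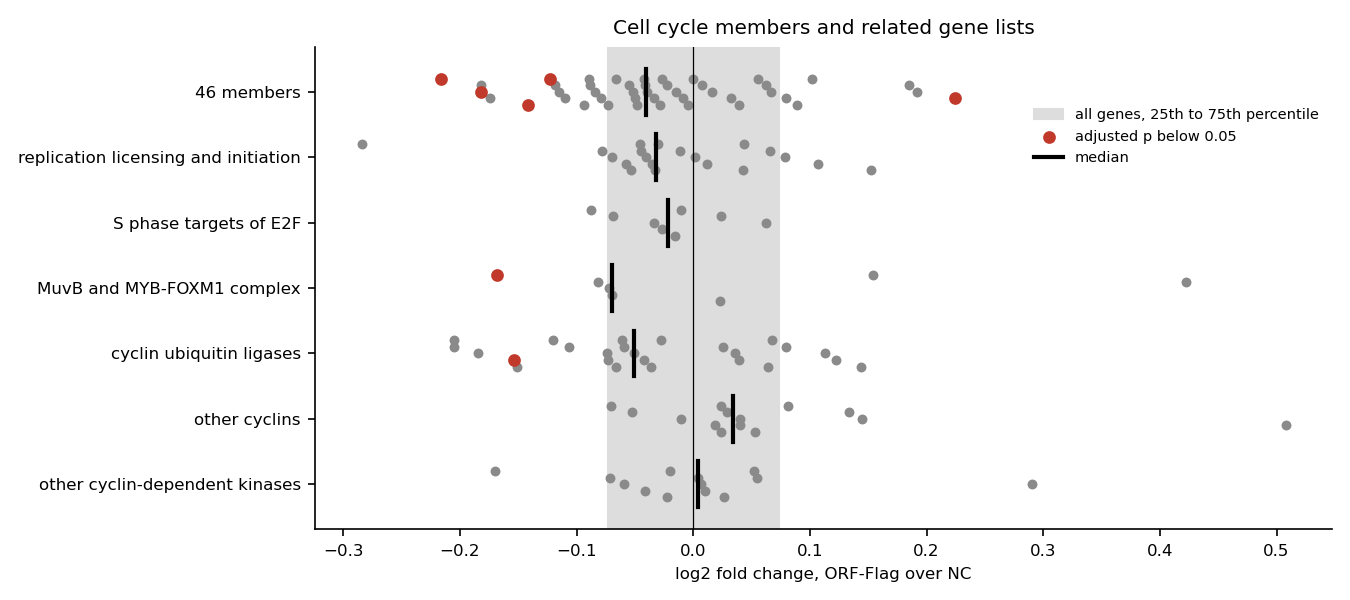
Log2 fold changes (ORF-Flag over NC, edgeR) of the tested genes of the 46 members and of 6 related lists; black bars are medians, red points have an adjusted p below 0.05, and the grey band spans the 25th to 75th percentile of all 12386 genes (-0.07 to 0.07). The median of the members is -0.04 and that of other cyclins 0.03; the band describes single genes and is no test of a median.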

How the data were processed

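The authors deposited 1 table of raw counts of reads per Ensembl gene, without normalization. The submitters' processing notes name cutadapt 1.11, HISAT2 2.1.0, featureCounts 1.6.0, edgeR and GRCh38, and the annotation release and strand setting are not given in the sources used here. Symbols were matched by stable identifier (20421 of 20422).

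Genes passing filterByExpr were fitted in edgeR 4.0.16 (R 4.3.3) with TMM factors and glmQLFTest, two-sided, and p-values were adjusted by Benjamini-Hochberg over 12386 genes. Levels are TMM-scaled CPM, and the SE was derived from the F statistic. Alternatives were DESeq2 1.42.0, limma 3.58.1 (trend and voom), no TMM, no filter, a minimum of 10 counts in every library, a block for the replicate number, and each library left out. edgeR, DESeq2 and limma were also run on simulated data. The outcome is not given here, and no result above rests on it. Chi-square per degree of freedom between libraries of a group was between 2.39 and 5.23, above the 1 that sampling noise alone would give.

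Members and lists were chosen with earlier results of these data known. Values per library are given for called members, the smallest p in each role, E2F1, PCNA, MKI67 and CCND1, and for CCND2 and CCNB1 after their values were seen. Of other lists, called and abundant genes are named. Lengths, exon overlaps and 31-base stretches come from GENCODE 29. Figures were drawn with matplotlib 3.10.9.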

Additional observations from a re-analysis of the deposited data

How the results depend on the processing

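Under DESeq2, limma-trend, limma-voom, no TMM, no filter and at least 10 counts in every sample, 1 member was called higher and between 3 and 5 lower, with between 431 and 824 calls over all genes (551 in the reported fit). The median log2 fold change of the members lay between -0.04 and -0.02 over all alternatives. With each library left out, 0 to 1 members were called higher, 0 to 3 lower, and 199 to 1058 genes overall; 199 came without ORF-Flag replicate 3, where 0 members were called, and 1058 without NC replicate 3. Fewer samples enter these fits, and the cause of the differences between libraries was not tested. The log2 fold change of E2F1 ranged from -0.01492 to 0.0536 with each library left out, with a changed sign without NC replicate 3 (-0.01288) and ORF-Flag replicate 1 (-0.01492). Whether the replicate numbers pair the samples cannot be settled from these data. Correlations of same-numbered libraries were 0.067, 0.027 and 0.045, and those of other pairs lay between -0.078 and 0.030. Each NC library correlated best with its same-numbered ORF-Flag library, while ORF-Flag replicate 2 correlated best with NC replicate 3. All of these values were small. With the replicate block, 1 member was called higher and 5 lower, CCNB1 among them (adjusted p = 0.0281), with 731 calls over all genes. Depth limits the members below about 10 CPM most, where the SE reached 0.32 for CDKN2B.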
